A study of Drosophila melanogaster with 3 samples.

Results

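Summits in later introns are places where CG44002-eGFP gave a reproducible ChIP-seq peak inside an annotated protein-coding gene, away from any gene start and beyond the first intron. They were taken from the dm6 peak list that the authors cut at a threshold of irreproducible discovery rate (IDR), which scores the repeatability of a peak from replicate to replicate. A summit was a member when it lay more than 500 bp from every annotated transcript start, in no exon, inside an intron of a protein-coding transcript and in the first intron of none. Of 7089 summits, 988 met the rule, which is 13.9% of the list (95% exact binomial interval 13.1% to 14.8%).

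The data came from chromatin of whole Drosophila melanogaster prepupae, the short stage that opens metamorphosis. All animals carried a transgene with eGFP joined to the C-terminal end of CG44002, in a strain named for CG34406, and anti-GFP antibody was used for the precipitation. There was 1 group, with males and females pooled, no stated age and 3 biological replicates, and no contrast between conditions. The labels do not say what drives the transgene, and whole animals mix all cell types, so the cells in which a site was occupied are unknown. The antibody field of the labels names CG34406 rather than GFP. Read depth is unknown from peak lists, and the control was not analysed here.

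Introns are the parts of a transcript that splicing removes. In flies the first intron is often long and often holds enhancers, the short DNA stretches where transcription factors bind to set when and where a gene is read. Later introns range from very short spacers to long stretches that can hold enhancers, internal promoters and whole nested genes. Binding at such places can belong to the host gene, to a nested gene or to a neighbour, and a peak list alone does not say which.

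The strongest members show the base composition that recurs throughout the set. The following 6 sequences are the 120 bp around the summits of the members ranked highest by signal, given 5′ to 3′ on the plus strand of the release 6 sequence from RefSeq. Capitals mark unbroken runs of 8 or more A or T. The order is that of their ranks in the list, which are 1, 34, 66, 70, 76 and 173.

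CG11050, chr2L:6612651-6612770: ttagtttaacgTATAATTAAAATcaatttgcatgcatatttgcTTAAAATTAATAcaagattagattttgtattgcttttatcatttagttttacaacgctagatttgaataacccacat
Trl, chr3L:14759462-14759581: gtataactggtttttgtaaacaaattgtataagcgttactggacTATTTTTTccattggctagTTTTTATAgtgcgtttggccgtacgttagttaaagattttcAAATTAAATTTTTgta
Raf, chrX:2300643-2300762: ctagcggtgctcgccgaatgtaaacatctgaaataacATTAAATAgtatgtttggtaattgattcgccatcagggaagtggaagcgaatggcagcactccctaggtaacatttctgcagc
Tet, chr3L:2824158-2824277: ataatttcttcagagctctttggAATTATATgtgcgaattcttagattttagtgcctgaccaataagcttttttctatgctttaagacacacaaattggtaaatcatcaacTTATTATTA
pum, chr3R:9229214-9229333: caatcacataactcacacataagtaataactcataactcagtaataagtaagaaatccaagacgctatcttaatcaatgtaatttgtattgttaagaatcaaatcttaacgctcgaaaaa
upSET, chr3L:14005013-14005132: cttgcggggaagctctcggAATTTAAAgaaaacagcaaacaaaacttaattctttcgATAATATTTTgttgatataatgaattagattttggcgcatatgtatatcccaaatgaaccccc

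In these windows A and T made up 76.7% of bases at CG11050, 70.8% at Trl, 55.8% at Raf, 70.8% at Tet, 71.7% at pum and 65.8% at upSET. The Raf window is the exception among the 6, and that at pum holds no run of 8. The matching 120 bp centred 200 bp to the right of the first pair of summits show the composition nearby. They held 41.7% A and T at CG11050 and 56.7% at Trl. The CG11050 window lies past the end of the 140 bp intron that holds its summit. That at Trl lies in the same intron as its summit. The part of the intron boundary in the CG11050 difference was not tested. Each of the 8 windows occurs once on the 6 chromosome arms.

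CG11050, 200 bp to the right, chr2L:6612851-6612970: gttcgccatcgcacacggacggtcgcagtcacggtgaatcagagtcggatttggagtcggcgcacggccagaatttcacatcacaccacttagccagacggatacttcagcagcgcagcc
Trl, 200 bp to the right, chr3L:14759662-14759781: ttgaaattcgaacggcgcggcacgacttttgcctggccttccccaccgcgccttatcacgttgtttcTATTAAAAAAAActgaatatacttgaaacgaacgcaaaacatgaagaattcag

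Later introns were occupied sparsely for the amount of DNA they offer. DNA that could hold a member, called eligible DNA here, came to 29.5 Mb or 22.1% of the 6 arms, against the 13.9% of summits. For each replicate list the 7089 peaks of highest signal (the top N) were classed in the same way, and later introns held 971, 979 and 963 of them in replicates 1, 2 and 3. The share was 13.7% ± 0.113 (SD, n = 3). Summit density in replicates 1, 2 and 3 was 32.9, 33.2 and 32.6 per Mb in later introns, and 89.1, 87.7 and 90.1 per Mb in first introns. Intergenic DNA had 33.8 ± 2.00 per Mb (SD, n = 3), within 1 SD of later introns. The ratio of later to first introns was 0.369, 0.378 and 0.362 in replicates 1, 2 and 3, below 1 in 3 of 3. An exact two-sided sign-flip permutation test over the replicates gave p = 0.25, the smallest p that 3 replicates allow. None of the comparisons between classes that follow can therefore pass 0.05. The replicate lists share most of their peaks, so an SD over them covers the spread between libraries and not the choice of sites.

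The gap between later and first introns was present at every distance from a gene start. Between 500 and 1000 bp from the nearest start, density was 62.9 ± 3.00 per Mb in later introns and 139.7 ± 1.88 per Mb in first introns (SD, n = 3). Between 8000 and 16000 bp it was 37.2 ± 0.816 and 64.9 ± 1.56 per Mb. Beyond 16000 bp it was 12.5 ± 0.131 per Mb in later introns and 40.3 ± 3.69 per Mb in first introns. The ratio within these bands was thus 0.451 ± 0.0271, 0.573 ± 0.0212 and 0.313 ± 0.0276. Members lay a median of 5424 bp from the nearest start, with quartiles at 2296 and 10733 bp and a farthest value of 51743 bp. For 496 members the nearest start belonged to the host gene itself, and for 492 to another gene only.

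**Figure D1:**
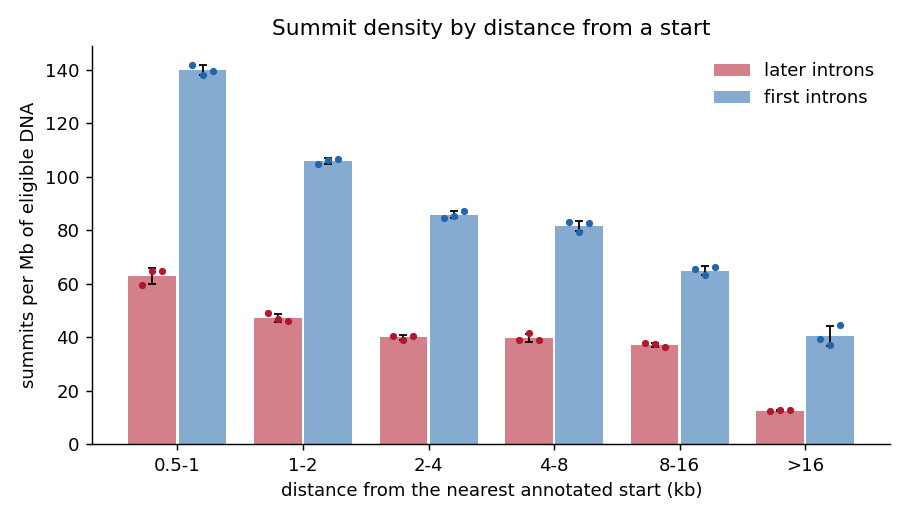
Summits per Mb of eligible DNA (y axis) by distance from the nearest annotated start in kb (x axis), for later introns (red) and first introns (blue). Bars are means, error bars SD and points the 3 replicates. Later introns lie below first introns in every band, from 62.9 against 139.7 per Mb nearest to starts to 12.5 against 40.3 per Mb beyond 16000 bp.

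Intron order and length went with density as well. Introns of order 2 held 603 members at 49.8 ± 0.255 per Mb, introns of order 3 held 165 at 33.0 ± 0.929 per Mb, introns of order 4 held 113 at 36.3 ± 1.15 per Mb, and introns of order 7 and above held 41 at 6.30 ± 0.511 per Mb (SD, n = 3). By length, density was highest in introns of 4000 to 16000 bp, at 43.0 ± 0.661 per Mb, and lowest in those under 1000 bp, at 9.21 ± 1.57 per Mb. Introns over 64000 bp had 19.9 ± 1.35 per Mb. The median host intron was 15719 bp long, and 4 members lay in introns shorter than 200 bp. The strongest peak of the whole list is 1 of these 4.

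Members were sparse near exons and at the 3′ ends of introns. Within 100 bp of an exon, density was 9.06 ± 0.69 per Mb in later introns and 41.8 ± 4.28 per Mb in first introns. It was 47.4 ± 1.64 and 117.0 ± 3.23 per Mb between 501 and 1000 bp from an exon (SD, n = 3). DNA near exons takes in all of the shortest introns, and the part of intron length in these values was not tested. Along the intron, the first part up to the midpoint held 561 members at 35.7 ± 0.901 per Mb and the remainder 427 at 29.8 ± 0.606 per Mb. The last 10% of the intron length had 20.7 ± 1.24 per Mb, against 42.1 ± 2.80 per Mb at 30% to 40%. In first introns the order differed at the 5′ end, where the first 10% had the highest density, 117.5 ± 5.15 per Mb, while in later introns it had 31.3 ± 1.69 per Mb.

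**Figure D2:**
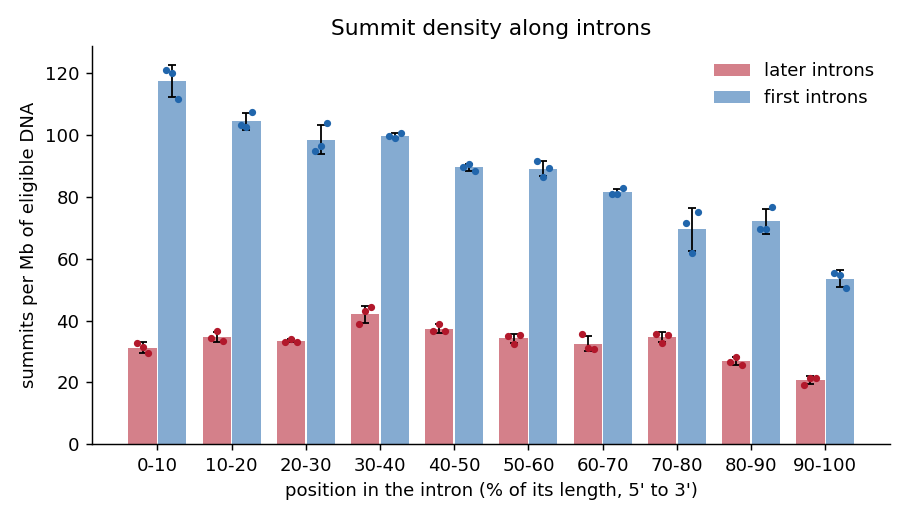
Summits per Mb of eligible DNA (y axis) in steps of 10% of the intron from its 5′ to its 3′ end (x axis, % of length), for later introns (red) and first introns (blue). Bars are means, error bars SD and points the 3 replicates. First introns have 117.5 per Mb in the first step and 53.6 in the last, while later introns peak at 42.1 per Mb between 30% and 40% and reach 20.7 per Mb in the last step.

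Among chromosome arms the X stood highest. It carried 248 members at 49.6 ± 1.51 per Mb of eligible DNA, against 37.8 ± 0.916 on 2L, 28.4 ± 0.831 on 2R, 30.9 ± 0.591 on 3L and 26.3 ± 0.824 on 3R (SD, n = 3). In each replicate the value for X, 48.0, 51.0 and 49.8 per Mb, was above those of the autosomal arms. First introns also had their highest mean on X, at 94.5 ± 4.20 per Mb, against 93.3 ± 3.74 on 3L, 85.4 ± 2.43 on 2R and 83.0 ± 2.91 on 2L, with 3R between 3L and 2R. The difference of X between the intron classes was not tested. The small chromosome 4 held no member in the IDR list or in any replicate, and its 0.416 Mb of eligible DNA allows up to 7.22 per Mb, the limit that a count of 0 sets. First introns were also sparsest on chromosome 4, at 9.55 ± 4.13 per Mb (SD, n = 3).

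Later-intron peaks had a lower median signal than first-intron peaks and all other peaks together, and their share was larger far down the ranking. The median of the authors' signal value, whose scale is not stated, was 151.1 for members and 159.5 for first-intron summits within the IDR list. Within the replicate lists the medians were 61.1 and 66.5 in replicate 1, 47.9 and 53.4 in replicate 2, and 43.4 and 46.7 in replicate 3. The difference was -5.39, -5.50 and -3.30, lower in 3 of 3 replicates (exact sign-flip permutation p = 0.25). Against all other peaks it was -5.61, -4.85 and -2.93. Those other peaks include promoter summits, with a median of 174.3 in the IDR list. Intergenic and exon summits were not compared by themselves. Within the IDR list the difference from first introns was -8.44, and it widened to -12.5, -13.9 and -17.2 when replicates 1, 2 and 3 were left out in turn and peaks had to be in the top N of the remaining pair. Against all other peaks it was -8.53, and -19.5, -19.1 and -20.4 in those same subsets.

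Members made up 10.7% of the peaks ranked 1 to 1417 and 15.9% of those ranked 5672 to 7089. The same ranks of the replicate lists gave 10.6% ± 0.108 and 15.0% ± 1.03 (SD, n = 3). The steps between were uneven in the IDR list, with 16.1% at ranks 2836 to 4253 and 13.3% at ranks 4254 to 5671. Below the IDR threshold the share went on rising, with 17.8% at ranks 7090 to 14178 of the pooled list and 20.6% at ranks 21268 to 30000. That last value is near the 22.1% of DNA that later introns make up. First introns held 27.4% of the highest ranks, 30.2% at ranks 4254 to 5671 and 25.8% of the lowest. Their replicate means were 27.0% ± 0.894 in the highest ranks and 24.4% ± 1.63 in the lowest.

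Members repeated between replicates like the rest of the list. Of the 988, 671 (67.9%) were top N peaks in all 3 replicates. Another 215 were so in 2 replicates, 93 in 1 and 9 in none. Over all 7089 peaks the share in all 3 was 67.4%, so the members' share is close to the background. The share of members in the top N was 88.0%, 85.7% and 83.0% in replicates 1, 2 and 3. The IDR list was made from these replicates, so the overlap is a description. Repetition followed signal, with 98.0% of the strongest 247 members in all 3 and 9.72% of the weakest 247.

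The strongest member was also the strongest peak of the series in each list. At CG11050 on 2L the peak (6612452 to 6612941) had a signal of 1165 in replicate 1, 890.5 in replicate 2 and 657.0 in replicate 3, rank 1 in all of them and in the pooled list. Its summit, at 6612711, lay in the middle of a 140 bp intron of order 2 (6612641 to 6612780), 70 bp from the nearest exon and 1024 bp from the nearest start of the gene. In the 100 bp around it 78% of bases were A or T, against 55% in the flanks 500 bp away, which lie outside that intron.

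The next members lay in genes of chromatin, signalling and RNA control. At Trl, which encodes the GAGA factor, a DNA-binding protein that opens chromatin, the peak on 3L (14759289 to 14759737) had signals of 649.9, 487.9 and 386.1 and ranked 32, 36 and 32 in replicates 1, 2 and 3. At Raf, the kinase that passes receptor signals on to the MAP kinase cascade, the peak on X (2300518 to 2300893) ranked 62, 66 and 67. At pum, which encodes an RNA-binding repressor of translation, the peak on 3R (9229050 to 9229454) ranked 74, 65 and 93. Its nearest start was that of a noncoding RNA, lncRNA:CR45196, at 1141 bp. Ranks at Trl and Raf differed by at most 5 places between replicates, and those at pum by more.

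Tet, a dioxygenase of the TET family, hosted 2 of the 12 strongest members, in the same 54877 bp intron. The peak on 3L at 2823994 to 2824430 ranked 79, 71 and 52 in replicates 1, 2 and 3, and that at 2834950 to 2835405 ranked 188, 212 and 196. At upSET, a SET-domain chromatin gene, the peak ranked 179, 156 and 231. The rest of the 12 lay in sba (191, 231 and 200), trio (282, 168 and 336), Alh (210, 373 and 286), CG6330 (199, 256 and 222) and CG5854 (261, 327 and 210). Alh is the fly counterpart of human AF10. The spread between replicates was widest at trio and Alh, while the 5 peaks within rank 100 of the pooled list were within it in each replicate. Of the 12, 5 lay on 3R, 5 on 3L and 1 each on 2L and X.

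**Figure D3:**
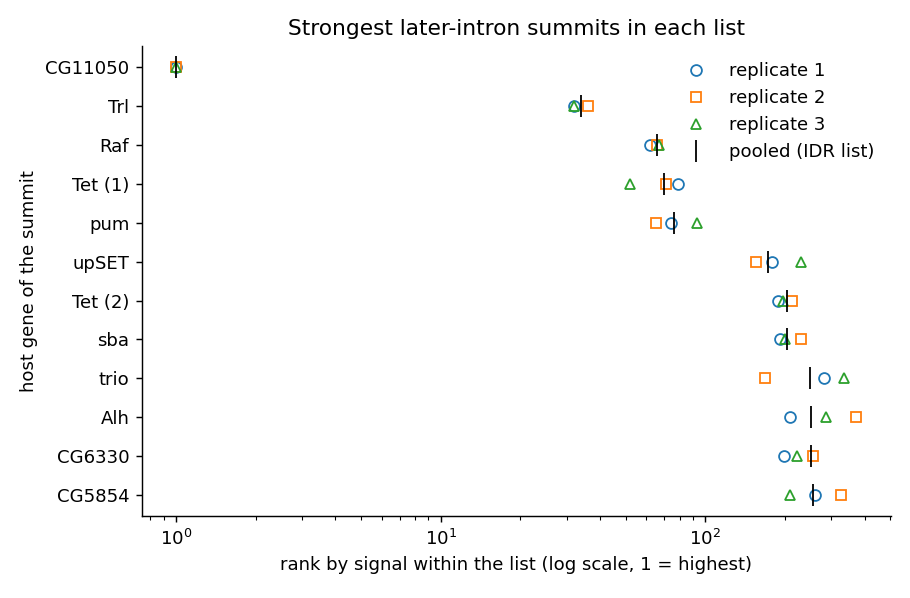
Rank by signal within each list (x axis, log scale, 1 is the highest) of the 12 strongest later-intron summits found among the top N peaks of every replicate, by host gene (y axis). Open symbols are replicates and the bar is the pooled rank. CG11050 is at rank 1 in every list, and the first 5 members stay within rank 100 in each replicate.

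The rule's distance of 500 bp is a fixed cut, and whether density changes there was not examined. The members nearest to a start were those of CG5854 (505 bp, signal 716.2), Nckx30C (506 bp, 152.7) and CG14434 (507 bp, 121.2). In all, 170 summits in later introns were left out because they lay within 500 bp of a start. The closest of these were in CG14434 (490 bp, signal 467.2), osp (482 bp, 153.5) and pyd (480 bp, 178.1).

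Many members shared a host gene. There were 425 host genes, of which 206 (48.5%) held at least 2 members, and 47.6% ± 0.921 did so in the replicates (SD, n = 3). The 56 genes with 5 or more held 389 members (39.4%), and 673 members shared their intron with another. The distance to the next summit of any class had a median of 2340 bp, and 276 members had one within 1000 bp. A further 27 members lay in introns of more than 1 coding gene and were counted for each.

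The adhesion gene kirre on X, whose immunoglobulin-domain product takes part in muscle founder cell recognition, held the most, with 21 members in 6 introns. It held 19, 23 and 25 top N summits in replicates 1, 2 and 3, over 293.1 kb of eligible DNA, or 71.6 members per Mb. CG1677 on X (7281089 to 7405797) was far denser, with 17 members in 47.0 kb, or 361.7 per Mb, and 17, 18 and 16 summits in the replicates. The strongest member in CG1677, at rank 537, lay nearest to the start of another gene, brk, 759 bp away. Tet held 14 in 49.5 kb (14, 13 and 13), and Raf 10 in a single intron (10, 12 and 10). Over all later introns the density was 33.5 per Mb. These genes were chosen for their many members, so a density above that value is no separate result.

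Among patterning genes, rdx and hth held 13 each. The product of rdx is a ubiquitin ligase adaptor of the Hedgehog pathway, and its 13 members sat in 1 intron (10, 11 and 9 in replicates 1, 2 and 3). The product of hth is a homeodomain partner of Hox proteins, and its members were spread over 7 introns (11, 10 and 9). They were among the weaker ones, with a best rank of 2126 and a median rank of 5552. The remaining pair of the 8 genes with most members were mtgo with 12 (12 in each replicate) and SKIP with 11 (11, 10 and 8). With 10 members (10, 9 and 9), ed tied with Raf and came after it by summed signal. The counts repeated within a few summits in every replicate for these genes.

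The share of genes that host a member follows the length of their later introns. Of 7595 coding genes with eligible DNA, 425 (5.6%) were hosts. The share was 0.401% for genes with up to 1 kb of it, 7.27% for 1 to 5 kb, 27.2% for 5 to 20 kb, 37.9% for 20 to 50 kb and 46.9% above 50 kb. The replicates gave 47.3% ± 2.57 in the last of these (SD, n = 3). Members per Mb did not rise with length beyond 20 kb. They were 48.9 per Mb for 5 to 20 kb and 18.4 per Mb above 50 kb. Counts for gene lists are therefore given with the eligible DNA of their median gene, to be read against the shares by length. The hosts of a list can be longer than its median gene, so the shares by length are only a rough guide. No list was tested.

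Genes of the ecdysone cascade, which answers the steroid that drives metamorphosis, held members densely. Of 19 such genes with eligible DNA, 8 were hosts in the IDR list and in each replicate, with 35 members at 107.6 per Mb, and 99.4 ± 6.40 per Mb in the replicates (SD, n = 3). The strongest were in tai, a coactivator of the ecdysone receptor (7 members, best rank 385), and in E23, an ecdysone-induced ABC transporter (5 members, best rank 483). Eip74EF, an ETS-domain factor, held 3 (best rank 633), and Hr4, a nuclear receptor, 3 (best rank 1303). EcR, the receptor itself, and the nuclear receptor ftz-f1 held 6 each. They are named after their counts were seen. The median gene of this list had 16.3 kb of eligible DNA, against 0.305 kb for all coding genes. List density was above the 33.4 per Mb of all coding genes and the 48.9 per Mb of genes with 5 to 20 kb. Of genes with 5 to 20 kb, 27.2% were hosts. Several hosts were longer than the median gene, with 46.9 kb in tai, 37.0 kb in Hr4 and 26.5 kb in Eip74EF. E23 had 14.7 kb. Of genes with 20 to 50 kb, 37.9% were hosts. The part of length in the share of this list was not tested.

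Cytoskeleton and polarity genes (median eligible DNA 5.28 kb) were hosts at 9 of 23, with 31 members at 84.9 per Mb. The Frizzled receptors fz (9 members, best rank 356) and fz2 (6, best rank 347), the protocadherin ds (7, best rank 1122) and the nuclear anchor Msp300 (1, rank 324) led them. Patterning transcription factors (median eligible DNA 7.60 kb) were hosts at 8 of 35, with 30 members at 66.8 per Mb. They were led by knrl (2 members, best rank 626), the ETS factor pnt (7, 1162), the homeodomain gene ct (1, 1837) and hth. Of the 30 members, hth alone gave 13. Chromatin regulators were hosts at 4 of 24, namely Trl (2 members), the Polycomb gene Psc (1, rank 627), kis (1, rank 1400) and the Brahma complex gene osa (3, best rank 1627). Their 7 members lay in only 0.0596 Mb, which gives 117.4 per Mb, and the replicates gave 123.0 ± 9.68 (SD, n = 3). The median gene of this list had 0.702 kb of eligible DNA. Its hosts had more, with 3.76 kb in Trl, 5.88 kb in kis, 6.84 kb in Psc and 14.8 kb in osa.

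Ion channel and synapse genes had the lowest density of the 8 lists. Their 8 members came to 9.36 per Mb, and 8.97 ± 1.35 per Mb in the replicates (SD, n = 3), with 27.7 kb of eligible DNA in the median gene. Hosts were 3 of 30 (5, 3 and 2 in replicates 1, 2 and 3), a share of 10%. That is above the 5.6% of all coding genes but below the 37.9% of genes with 20 to 50 kb of eligible DNA. The hosts included Ca-beta, a calcium channel subunit (6 members, best rank 680). The others were the acetylcholine receptor gene nAChRalpha6 (1, rank 2632) and the potassium channel gene Elk (1, rank 6714). Axon guidance and adhesion genes (median eligible DNA 16.4 kb) were hosts at 12 of 35, with 47 members at 36.2 per Mb. Of these, 21 were those of kirre, followed in strength by Ten-a (5, best rank 651), Sema1a (6, 710) and tutl (2, 1311). Muscle genes (median eligible DNA 3.58 kb) were hosts at 3 of 20, if (2), Zasp52 (2) and kon (1), at 36.5 per Mb. Signalling receptors and ligands (median eligible DNA 2.76 kb) were hosts at 8 of 24, with 11 members at 82.6 per Mb. The replicates gave 85.2 ± 15.6 per Mb (SD, n = 3). The strongest were in the receptor gene N (2 members, best rank 738), its ligand gene Delta (1, rank 1382), Pvr (1, rank 3853) and Ser, another ligand of the N receptor (3, best rank 4166).

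The sequence at members was rich in A and T and was flanked by a dip. A and T made up 68.5% of the central 100 bp, and 68.0% ± 0.524 in the replicates, against 60.4% over all eligible later-intron DNA. The share fell below that level on both sides, to 55.1% ± 0.0744 centred 200 bp to the left and 54.5% ± 0.282 centred 200 bp to the right. It rose again to 59.3% ± 0.0725 and 59.4% ± 0.151 at 800 bp, still a little below 60.4% (SD, n = 3). Summit minus flanks 500 bp away came to 10.4, 11.9 and 10.1 percentage points in replicates 1, 2 and 3, above 0 in 3 of 3 (exact sign-flip permutation p = 0.25). Of the 988 members, 857 exceeded their own flanks.

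First introns gave a similar peak, 67.6% ± 0.606, and a shallower dip, 56.7% ± 0.249 and 55.8% ± 0.168 at 200 bp. Stronger members were richer in A and T, with 70.4% in the strongest 247 and 66.9% in the weakest 247, while their flanks differed little, at 57.2% and 56.3%. In the 120 bp around the summit the longest run of A and T averaged 12.2 ± 0.0996 bases in the replicates, and 8.98 ± 0.218 bases centred 500 bp to the right (SD, n = 3). A run of 8 or more, as in capitals above, was found at 86.6% of members and at 55.9% of the windows 500 bp to the right. On the host gene's coding strand T exceeded A by only 0.653 percentage points, so both bases were nearly balanced. Summits were soft-masked as repeats or simple sequence in the reference at 26.5% of members, against 24.4% of later-intron DNA, and at 27.3% ± 1.97 in the replicates (SD, n = 3).

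**Figure D4:**
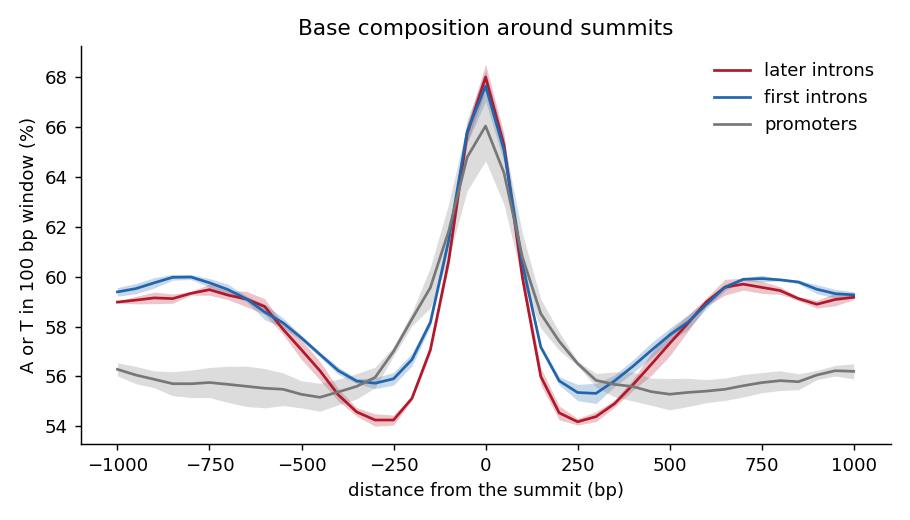
Percent of A or T in 100 bp windows (y axis) by distance from the summit in bp (x axis), for later introns (red), first introns (blue) and promoters (grey). Lines are means over 3 replicates and bands SD. Later introns reach 68.0% at the summit and 54.5% at 200 bp to the right, the deepest dip of the 3 classes there.

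Matches to short consensus strings, on either strand, were counted in 200 bp windows centred on the summit and 500 bp to each side. Of 20 strings, 8 had a higher share of summits than of flanks in all 3 replicates, 7 were less frequent in all 3 and 5 were mixed. A match is only a match of letters, and the part of base composition in these differences was not tested. The 130090 windows of 200 bp tiled over eligible later-intron DNA give the background for each.

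The larger excesses were those of A- and T-rich strings. The TATA box string TATAAA was found at 37.1% of members and 19.3% of flanks, against 24.0% of tiled windows, with a difference of 16.3 ± 2.10 percentage points in the replicates (SD, n = 3). A run of A, AAAAAAAA, was found at 26.6% and 15.1%, against 13.1% of tiled windows. The string of Mef2, the muscle regulator, was found at 11.4% and 4.71% (7.03% of tiled windows). The others were TAATTA of homeodomains (17.1% and 11.4%, 13.9% of tiled windows), ATATATAT (6.38% and 2.99%, 3.77%), AGATAA of GATA factors (14.0% and 11.5%, 11.6%) and AACAAT of Sox-type HMG boxes (23.1% and 21.1%, 21.7%). The GATA and Sox strings thus lay only a little above the tiled windows.

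The AP-1 string TGANTCA, a palindrome around any 1 base that also holds C and G, was more frequent at members than in flanks as well. It was found at 6.07% of members and 3.74% of flanks, against 3.97% of tiled windows. The difference was 2.06, 2.15 and 2.96 percentage points in replicates 1, 2 and 3. In first introns it was 0.518 ± 0.272 points, from 5.76% of summits and 5.26% of flanks in the IDR list. Later and first introns were thus close at the summit, at 6.07% and 5.76%, and further apart in flanks, at 3.74% and 5.26%. Later minus first introns came to 1.87 ± 0.404 points, above 0 in 3 of 3 replicates (exact sign-flip permutation p = 0.25).

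Other strings also differed between later and first introns. The excess of AAAAAAAA was larger in later introns by 4.17 ± 0.335 points. The C/EBP string TTGCNNAA was less frequent at members (15.6% and 18.3%, 18.2% of tiled windows), by 2.35 ± 1.34 points below flanks in the replicates, but more frequent at first-intron summits by 1.73 ± 0.764 points. The difference was -5.67, -4.34 and -2.23 points in replicates 1, 2 and 3. The Abd-B type string TTTATG, found at 22.1% ± 1.21 of later-intron summits and 23.8% ± 0.535 of flanks in the replicates (23.5% of tiled windows), differed from first introns by -4.59 ± 1.22 points (SD, n = 3). Its difference from flanks turned to 0.10 points in 100 bp windows. In all, later minus first introns had 1 sign in all 3 replicates for 12 of 20 strings.

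The remaining strings less frequent at members in all 3 replicates included simple repeats and E-boxes. CACACACA was found at 4.05% of members and 8.30% of flanks, so members lay close to the 5.04% of tiled windows and flanks above it. GAGAGAG, the repeat bound by the GAGA factor, was found at 2.53% and 5.11% (2.69% of tiled windows). The E-box CANNTG was found at 56.8% and 64.7% (61.7%), CACGTG at 0.810% and 2.18% (2.21%), and the nuclear receptor string AGGTCA at 3.24% and 4.30% (5.12%). The mixed strings were the forkhead string GTAAACA (4.15% and 3.39%, 4.02% of tiled windows), ATCAAAG of Tcf (3.54% and 3.64%, 3.94%), TATCGATA of the DRE (0.405% and 0.304%, 0.489%), CAGGTAG of Zelda (1.21% and 0.709%, 0.881%) and TGTGGT of Runt (6.68% and 7.44%, 8.58%). The DRE string, found at 4.13% of promoter summits, was thus near its background in later introns. In replicates 1, 2 and 3 the Zelda difference was -0.206, 0 and -0.0519 points, so its excess in the IDR list did not recur. The Runt difference was -0.206, -0.153 and 1.35 points.

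**Figure D5:**
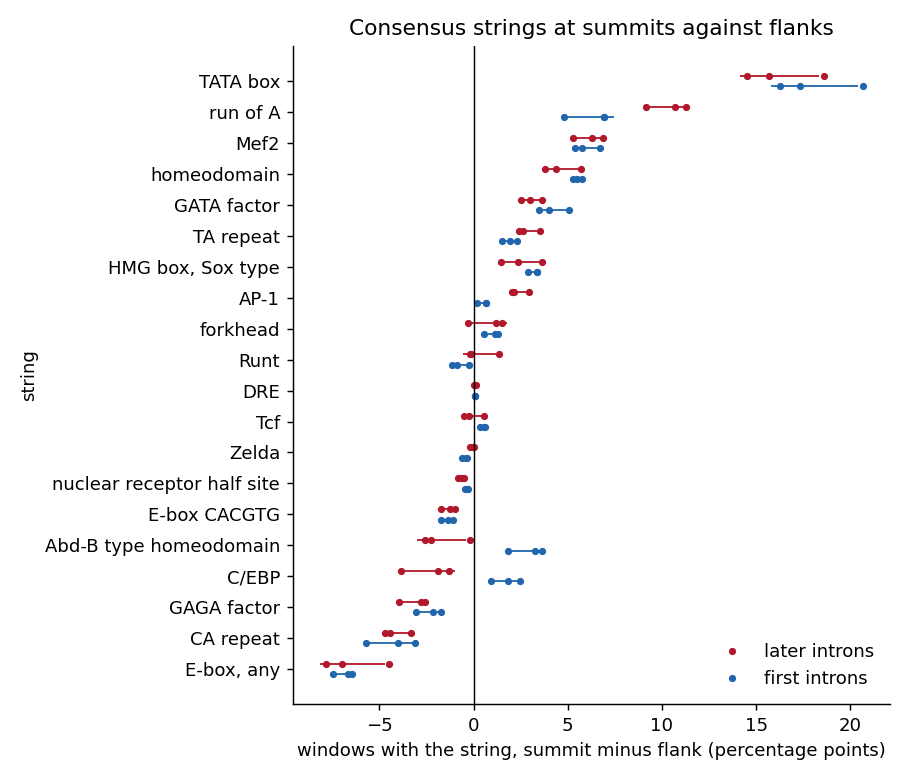
Percent of 200 bp windows that hold each string at the summit minus that in flanks 500 bp away (x axis, percentage points) for 20 strings (y axis), in later introns (red) and first introns (blue). Points are the 3 replicates and lines SD around the mean. The AP-1 string lies near 2.39 points in later introns and 0.518 in first introns. The C/EBP and Abd-B type strings both lie below 0 in later introns and above 0 in first introns.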

How the data were processed

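The authors deposited peak lists in narrowPeak layout, made from each replicate or the pooled replicates with 1 control file, per the file inventories deposited with the libraries. The deposited signal value per peak (column 7) has no stated scale and was used only within 1 list. The sources used here name no aligner, peak caller or threshold. Every IDR peak is among the first 7089 of the pooled list by signal, and errors were taken from the replicate lists. Peak lists on dm3 were not used.

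Coordinates are dm6, 1-based, and no peak ran past the end of its arm in the RefSeq release 6 sequence. Genes came from Ensembl release 115 (BDGP 6.54) without transposable elements, 18164 in all and 13945 coding. The summit was the peak start plus column 10. A peak was in a replicate when its summit lay inside a top N peak there. With several host introns the shortest was used. Shares have 95% exact binomial intervals, which cover counting error only. Classes were compared with the exact sign-flip permutation test over 3 replicates. Counting was done with Python 3.11.15, numpy 2.4.6, pandas 2.3.3 and scipy 1.17.1, and the scripts were checked on simulated data.

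The genes named are the hosts of the 12 strongest members in all 3 replicates, the 8 genes with most members, up to 4 hosts per gene list by strength, and the members and summits next to the 500 bp distance. All 20 strings and 6 arms are named. Sequences from 1 arm were left out. In the gene lists, 4 older symbols were replaced by those of the annotation (Delta, Tl, Elk and Obsc) after results were seen, through the RefSeq synonyms. The members, lists and strings were chosen with earlier results of these data known. Columns of other samples numbered 0.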

Additional observations from a re-analysis of the deposited data

How the results depend on the processing

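The ratio of later to first intron density stayed below 1, and both median signal differences stayed negative, under every alternative run for them. Other comparisons between classes had no alternative. With starts within 200 bp, 1000 bp, or coding starts and exons only, later introns held 15.5%, 12.8% and 14.4% of summits, and 12.8% in the stronger part of the list. The ratio of later to first intron density was 0.388 with 1000 bp and 0.335 in the stronger part of the list. The median signal difference from first introns was -5.71 with 1000 bp, and that from all other peaks -4.45 with 200 bp. The share of members in all 3 replicates was 63.0% when a replicate summit had to lie within 100 bp, and 98.0% with the whole replicate lists. The AT difference was 8.80 points in 200 bp windows, 13.9 with flanks 200 bp away and 12.5 in the stronger members. The median position was 0.438 of the intron, and 0.422 with the longest host intron. Host genes with at least 2 members made up 36.6% in the stronger part of the list, where fewer members remain.

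When replicates were left out in turn, the share ranged over 13.965% to 13.998%, the density ratio over 0.360 to 0.368, the signal difference from first introns over -17.2 to -12.5 and from all others over -20.4 to -19.1, the AT difference over 11.8 to 12.2 points, the median position over 0.440 to 0.452 and genes with at least 2 members over 46.5% to 48.6%. Peaks were not recalled from reads, so the omitted replicate still shaped them. Of 20 strings, 17 kept the sign of their difference in all alternatives, and the Abd-B type string turned to 0.101 points in 100 bp windows. There the Runt string turned to 0.354 points, and the Tcf string to 0.152, with 0.270 and 0.588 points without replicates 2 and 3. The cause was not tested. No paired analysis was possible because there is 1 group. Read depth is unknown, so weak sites cannot be told from absent ones.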
